A study of Mus musculus with 96 samples.

Results

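The response of LbNOX myotubes to oligomycin was read from 6 of the 96 libraries of the series, chosen by their labels: 3 of oligomycin-treated and 3 of DMSO-treated LbNOX myotubes. All came from C2C12, a mouse myoblast line whose cells fuse into myotubes once serum is lowered, after 4 days in low serum. An adenovirus was added 48 h after the serum was lowered, and in these 6 libraries it carried eGFP together with LbNOX, the water-forming NADH oxidase of Lactobacillus brevis, which acts in the cytosol. The myotubes were then given 1 µM oligomycin or the solvent DMSO for 10 h. The reference libraries were 2 oligomycin and 2 DMSO libraries of myotubes with a virus for eGFP alone (GFP myotubes), 3 libraries of LbNOX myotubes given the complex I inhibitor piericidin at 0.5 µM, and 3 oligomycin and 3 DMSO libraries of myotubes without virus. By the volumes and titres in the study's methods, the GFP and LbNOX viruses were added at about the same number of particles per well. Nothing in the labels says that replicates were separate cultures, so p-values measure the spread between these libraries, which may be technical. The labels also hold a code whose number goes with the treatment, 10 for every DMSO and 11 for every oligomycin library of the LbNOX and GFP myotubes; the labels do not explain the code, and within these groups it cannot be told apart from the treatment. The piericidin LbNOX libraries carry 10, 11 and 11, and those with 11 had Atf3, described below, at 7.73 and 10.8 CPM (counts-per-million, on a scale given below) against 255 to 272 CPM with oligomycin at the same number. Myotubes without virus have DMSO and oligomycin libraries with shared numbers, 7 and 8.

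Oligomycin blocks the proton channel of mitochondrial ATP synthase, which stops oxidative ATP synthesis and, because the proton gradient is no longer used, also slows the respiratory chain and its use of NADH. LbNOX passes electrons from NADH directly to oxygen and so lowers the NADH/NAD+ ratio without restoring ATP synthesis. The integrated stress response (ISR) begins with phosphorylation of the translation factor eIF2α: most translation slows, the transcription factor ATF4 is made, and ATF4 with partners such as CHOP, ATF3 and C/EBP proteins turns on genes of amino acid synthesis, amino acid uptake and tRNA charging. The comparison asks how the transcriptome, and the ISR genes in it, respond to inhibition of ATP synthase when cytosolic NADH can be oxidised by another route.

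The 6 libraries held 8962516 to 12646842 estimated counts each, of which 2.61 to 2.82% came from the mitochondrial genome. The transgenes matched the labels. LbNOX stood at 7939, 7862 and 7702 CPM (a counts-per-million scale, here and for all levels on library sizes adjusted by the trimmed mean of M values) in the DMSO libraries, and no library outside the 34 labelled as carrying LbNOX or its mitochondrial form held a count of it. With oligomycin LbNOX reached 12170, 12204 and 12140 CPM, a log2 fold change of 0.64 (SE 0.029, edgeR adjusted p = 1.62e-08), so the treated cells held more of its transcript than their controls. eGFP moved the same way in LbNOX myotubes, from 2503, 2557 and 2401 CPM to 3070, 2794 and 2787 CPM (log2 fold change 0.21, edgeR adjusted p = 0.00176), and by 0.25 in GFP myotubes. Myotube markers (Myog, Ckm, Acta1, Myh3, Mylpf, Tnnt3, Mymk and Des) summed to 17479 to 18114 CPM with DMSO and 17337 to 18100 CPM with oligomycin, but 2 of the 8 rose (Myog at 0.97 and Acta1 at 0.25 on the log2 scale), 5 fell (Tnnt3, Mylpf, Ckm, Mymk and Des, by 0.21 to 0.28) and the median log2 fold change was -0.23. Markers of dividing or undifferentiated myoblasts summed to 106 to 115 CPM and to 123 to 129 CPM, with Myf5 the only called member among 6. Of 6 interferon response genes only Oasl2 had enough counts to be tested, at a log2 fold change of 0.00.

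Oligomycin changed 3964 of the 12397 features tested in LbNOX myotubes at an edgeR adjusted p under 0.05. Of all features tested, 16.6% were higher (2052) and 15.4% were lower (1912), and the median log2 fold change was -0.02. At least 2-fold differences were found for 720 of them, 409 higher and 311 lower. In GFP myotubes the same test called 13.8% higher and 12.1% lower, over fewer libraries. The smallest adjusted p of all was that of Ddit3, described below. Counts of list members are to be read against these shares. Where groups are said not to overlap, only the genes printed are described. The share of all features without overlap is not given. Of the 173 called genes whose values follow or that belong to the largest changes, 147 kept their call under every alternative run, and 26 lost it under another setting or with 1 replicate left out, none with a change of direction: Cars2, Ccng1, Clpx, Col5a2, Fas, Fosl1, Gapdh, Gldc, Gpt, Gsr, Igf1r, Igfbp6, Irs1, Ldhb, Mef2c, Nadsyn1, Nars2, Nmrk2, Sesn1, Slc36a4, Sparc, Timm17a, Ttn, Xbp1, mt-Nd1 and mt-Nd6.

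All 6 ISR transcription factors with enough counts rose, and their median log2 fold change was 1.84 against -0.02 for all features. Atf3 (ENSMUSG00000026628, chromosome 1, 191170296 to 191218039, minus strand, GRCm38), a stress-induced bZIP factor downstream of ATF4, stood at 3.87, 3.26 and 3.11 CPM with DMSO and at 270, 272 and 255 CPM with oligomycin. No oligomycin library came near a DMSO library, and the log2 fold change was 6.27 (SE 0.12, edgeR adjusted p = 5.65e-14). Ddit3 (ENSMUSG00000025408, chromosome 10, 127290774 to 127296288), which encodes the ATF4 partner CHOP, went from 19.1, 20.9 and 18.7 CPM to 436, 432 and 417 CPM, a log2 fold change of 4.45 (SE 0.07, edgeR adjusted p = 1.23e-14). Atf4 itself, whose protein is controlled chiefly by translation, went from 180, 190 and 194 CPM to 706, 716 and 717 CPM. Its transcript rose by 1.92 on the log2 scale (SE 0.04, edgeR adjusted p = 3.63e-13). Cebpg, the C/EBP partner of ATF4, rose by 1.77, Nupr1, a small chromatin protein of stressed cells, by 1.64, and Atf5, a close relative of ATF4, by 1.01 on the log2 scale. Cebpb and Jdp2 had too few counts to be tested.

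The promoter windows of some ISR genes hold the composite element to which ATF4 and C/EBP partners bind. The letters TGATGNAAN were searched on both strands in RefSeq windows from 250 bases before to 50 bases after each start (GRCm38.p6). Across the 7 lists of ISR factors, feedback genes, mitokines and genes of amino acid metabolism, uptake and charging, 60 members were called higher in LbNOX myotubes, 45 of these had a window, and 15 windows held the element (33.3%). Among the 23 members tested and not called higher, 16 had a window and 0 held it, while 4.5% of all 27025 symbols with a window did. The holders were Atf3, Nupr1, Trib3, Chac1, Fgf21, Asns, Pycr1, Got1, Slc7a11, Slc1a4, Aars, Gars, Iars, Tars and Yars. A match is a description of the letters and not evidence of binding. Among the genes named below for the largest rises, 8 were outside these lists, 7 of them had a window and 1, Avil, held the element. The 250 bases before the start are printed for a transcription factor, a feedback gene, a secreted hormone and a transporter whose values are given in this report, and for Avil, with the element in capitals on whichever strand it lies and each sequence read 5′ to 3′ along its gene:
Atf3, chr1:191183334-191183583, minus strand: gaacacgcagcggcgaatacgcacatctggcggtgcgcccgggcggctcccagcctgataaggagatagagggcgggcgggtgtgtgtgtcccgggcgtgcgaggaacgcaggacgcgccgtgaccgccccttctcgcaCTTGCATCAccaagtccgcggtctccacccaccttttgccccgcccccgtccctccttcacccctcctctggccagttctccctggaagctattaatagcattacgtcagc
Chac1, chr2:119350992-119351241, plus strand: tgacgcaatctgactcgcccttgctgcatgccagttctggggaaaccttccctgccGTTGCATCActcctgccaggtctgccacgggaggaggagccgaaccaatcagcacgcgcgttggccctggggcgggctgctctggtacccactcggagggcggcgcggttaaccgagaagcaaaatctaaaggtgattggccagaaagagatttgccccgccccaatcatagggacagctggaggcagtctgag
Fgf21, chr7:45615491-45615740, minus strand: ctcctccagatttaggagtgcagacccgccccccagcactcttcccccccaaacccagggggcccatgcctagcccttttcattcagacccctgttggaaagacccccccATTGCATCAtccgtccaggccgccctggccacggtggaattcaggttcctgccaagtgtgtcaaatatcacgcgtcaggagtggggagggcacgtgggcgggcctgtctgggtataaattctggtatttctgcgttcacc
Slc7a11, chr3:50443614-50443863, minus strand: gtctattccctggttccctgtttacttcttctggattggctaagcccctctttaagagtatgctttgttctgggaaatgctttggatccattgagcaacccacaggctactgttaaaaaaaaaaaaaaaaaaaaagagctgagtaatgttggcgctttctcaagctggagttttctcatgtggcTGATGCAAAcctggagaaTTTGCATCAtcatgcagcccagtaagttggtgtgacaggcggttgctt
Avil, chr10:127000459-127000708, plus strand: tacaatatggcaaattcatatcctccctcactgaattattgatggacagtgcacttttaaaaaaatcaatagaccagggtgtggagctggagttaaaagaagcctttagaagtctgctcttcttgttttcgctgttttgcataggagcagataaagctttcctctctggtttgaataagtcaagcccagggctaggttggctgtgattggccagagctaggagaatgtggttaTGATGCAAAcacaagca
The element began 111 bases before the start in Atf3, 194 in Chac1, 140 in Fgf21 and 17 in Avil, and Slc7a11 held it at 66 bases on the gene's own strand and at 48 bases on the other. For Atf3 the RefSeq start used lies inside the gene span given above, not at its outer end, and that of Nupr1 also lies inside its gene span.

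Of 8 feedback and growth-brake genes of the ISR, 6 rose, 0 fell and 2 were not called, with a median log2 fold change of 1.72. Trib3, a pseudokinase that binds and restrains ATF4 and CHOP, went from 8.34, 10.9 and 9.8 CPM to 338, 330 and 347 CPM (log2 fold change 5.13, SE 0.14, edgeR adjusted p = 2.91e-12). Ppp1r15a, the GADD34 subunit that directs a phosphatase to eIF2α, went from 23.7, 24.1 and 31.7 CPM to 293, 259 and 288 CPM (log2 fold change 3.41). Chac1, which degrades glutathione, went from 20.6, 20.6 and 17.9 CPM to 128, 124 and 144 CPM (log2 fold change 2.74). In each of these 3 genes the groups stood far apart. Sesn2, an inhibitor of mTORC1 signalling, rose by 2.31, Eif4ebp1, a repressor of cap-dependent translation, by 1.12, and Ppp1r15b, the constitutive counterpart of Ppp1r15a, by 0.62 on the log2 scale. Ddit4, another mTORC1 brake, had a log2 fold change of 0.33 (SE 0.24, edgeR adjusted p = 0.327) and Trib1 one of 0.08 (SE 0.12, edgeR adjusted p = 0.673).

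Both secreted ISR hormones rose. Gdf15 (ENSMUSG00000038508, chromosome 8, 70629393 to 70632456), which acts on a hindbrain receptor to curb appetite, stood at 2.54, 2.87 and 2.88 CPM with DMSO and at 66.2, 61.7 and 63.5 CPM with oligomycin, a log2 fold change of 4.52 (SE 0.11, edgeR adjusted p = 5.67e-13). Fgf21 (ENSMUSG00000030827, chromosome 7, 45613886 to 45615490), an endocrine growth factor of fasting and mitochondrial stress, went from 30.1, 28.1 and 31.1 CPM to 223, 220 and 212 CPM, a log2 fold change of 2.87 (SE 0.06, edgeR adjusted p = 9.43e-14). The 3 treated values of each hormone lay close together and well above all 3 control values.

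**Figure D1:**
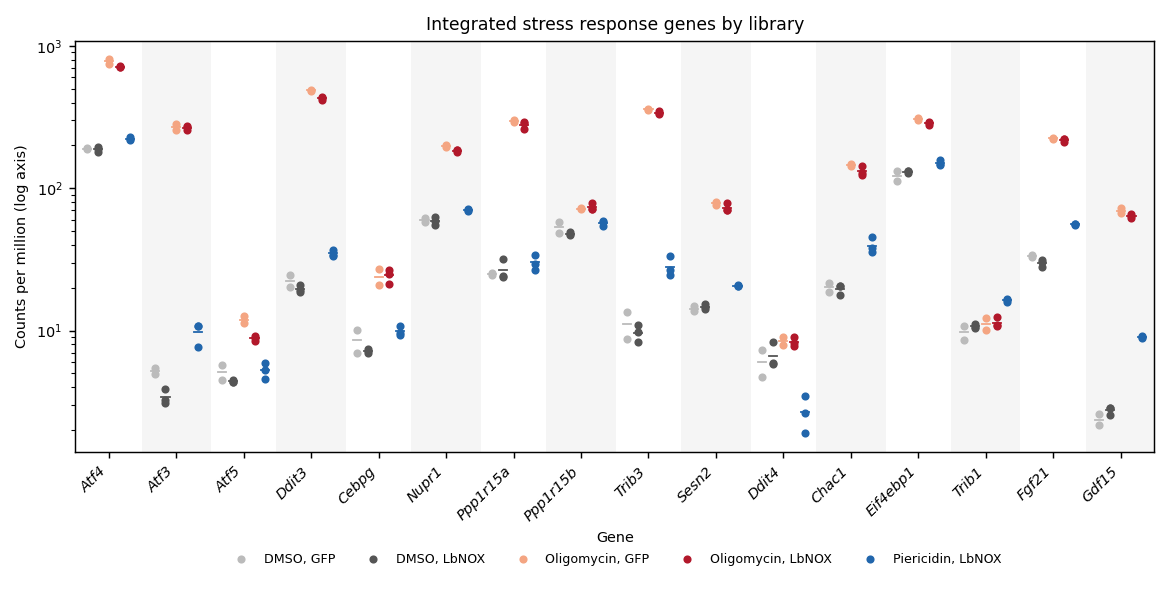
Levels of ISR genes on a log axis in CPM, one point per library, for DMSO and oligomycin in LbNOX myotubes, piericidin in LbNOX myotubes, and DMSO and oligomycin in GFP myotubes, with short bars for group means. Except for Ddit4 and Trib1, the oligomycin points of both kinds of myotube lie above their DMSO points, for Atf3 at 255 to 272 CPM against 3.11 to 3.87 CPM in LbNOX myotubes, with piericidin at 7.73 to 10.8 CPM.

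Genes of the serine and one-carbon pathway, which supplies glycine and folate-bound carbon units, rose more often than they fell: of 14 tested, 10 rose, 1 fell and 3 were not called (median log2 fold change 0.71). Mthfd2, the mitochondrial folate dehydrogenase, went from 82.4, 70.6 and 72.3 CPM to 273, 274 and 274 CPM (log2 fold change 1.86, SE 0.07, edgeR adjusted p = 4.4e-11). Aldh1l2, which oxidises formyl-folate in mitochondria, went from 27.4, 27.1 and 26.5 CPM to 110, 104 and 119 CPM, the largest rise of the list at 2.04. The 3 enzymes of serine synthesis rose by 0.91 (Phgdh), 0.77 (Psat1) and 1.66 (Psph) on the log2 scale, and Shmt2, which turns serine into glycine, by 1.39. The member that fell was Gldc, of the glycine cleavage system, at low counts (4.17, 1.09 and 4.84 CPM against 1.42, 1.12 and 1.19 CPM, edgeR adjusted p = 0.0376), where 1 DMSO library lay below the oligomycin libraries.

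Among 14 genes of the synthesis of other amino acids, 9 rose and 1 fell (median log2 fold change 0.63). Cth, the last enzyme of cysteine synthesis, stood at 1.93, 3.56 and 2.19 CPM with DMSO and 26.8, 31.4 and 30.9 CPM with oligomycin (log2 fold change 3.52, SE 0.21, edgeR adjusted p = 1.17e-08). Asns, asparagine synthetase and a classical ATF4 target, went from 82.7, 86.9 and 85.9 CPM to 301, 293 and 291 CPM (log2 fold change 1.79). Bcat1, the cytosolic aminotransferase of branched-chain amino acids, rose by 2.21, and the proline synthesis genes Aldh18a1 and Pycr1 rose by 1.61 and 1.55 on the log2 scale. The gene that fell was the cytosolic alanine aminotransferase Gpt, at -0.33, while its mitochondrial counterpart Gpt2 rose by 0.64.

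Of 19 amino acid transporters 11 rose and 2 fell, and the median log2 fold change was 0.36. Slc3a2, the heavy chain shared by several exchangers, went from 142, 139 and 149 CPM to 542, 549 and 561 CPM (log2 fold change 1.94). Slc7a11, its light chain for cystine import, was scarce and went from 1.53, 1.19 and 1.5 CPM to 6.86, 6.26 and 6.09 CPM (log2 fold change 2.18, SE 0.29, edgeR adjusted p = 4.46e-05). The glycine transporter Slc6a9 rose by 2.62 and the cationic amino acid transporter Slc7a1 by 1.96 on the log2 scale. The pair that fell was Slc6a6, the taurine transporter, from 496, 499 and 496 CPM to 286, 259 and 288 CPM (log2 fold change -0.84), and Slc36a4, at -0.59.

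Cytosolic and mitochondrial tRNA synthetases, which load tRNAs with their amino acids, differed in their counts. Of 20 cytosolic enzymes 16 rose and 0 fell, with a median log2 fold change of 1.12. Wars, for tryptophan, led with 93.9, 95.1 and 83.7 CPM against 307, 292 and 316 CPM (log2 fold change 1.75, SE 0.05, edgeR adjusted p = 8.17e-12), followed by enzymes such as Rars at 1.29, Lars at 1.25 and Eprs at 1.21. The 4 not called were Vars (log2 fold change 0.75, SE 0.41), Dars (0.08), Qars (-0.01) and Farsa (-0.08). Of 17 mitochondrial enzymes 4 rose (Tars2 at 0.73, Ears2 at 0.67, Rars2 at 0.63 and Nars2 at 0.35) and 1 fell (Cars2 at -0.62), and their median was 0.04, near that of all features.

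Chaperones of the mitochondria, the endoplasmic reticulum (ER) and the cytosol gave different counts. Of 15 mitochondrial chaperones and proteases 9 rose and 2 fell (median log2 fold change 0.40). Hspa9, the mitochondrial Hsp70, went from 485, 452 and 461 CPM to 1077, 1065 and 1091 CPM (log2 fold change 1.21), its cochaperone Dnaja3 rose by 1.29, the matrix protease Lonp1 by 0.88 and the chaperonin Hspd1 by 0.68 on the log2 scale, while Timm17a (-0.21) and Clpx (-0.22) fell. Of 19 genes of the ER unfolded protein response 5 rose and 10 fell (median -0.26). Those that rose were Herpud1 at 1.00, Sel1l at 0.49, Dnajb9 at 0.34, Hspa5 at 0.33 and Xbp1 at 0.21, and the lowest were Sdf2l1 at -0.80 and Manf at -0.58. Of 17 cytosolic heat shock genes 5 rose and 9 fell (median -0.28), among them Hspa8, the constitutive Hsp70, which went from 1248, 1209 and 1236 CPM to 718, 681 and 741 CPM (log2 fold change -0.79), and Hspa1b at -0.86. The heat shock factor Hsf1 rose by 0.55 on the log2 scale. Estimated counts of Hspa1b and of other genes with near-identical copies, such as Gapdh, Pgk1, Aldoa and Ldha, can be divided among the copies and are uncertain to that extent.

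**Figure D2:**
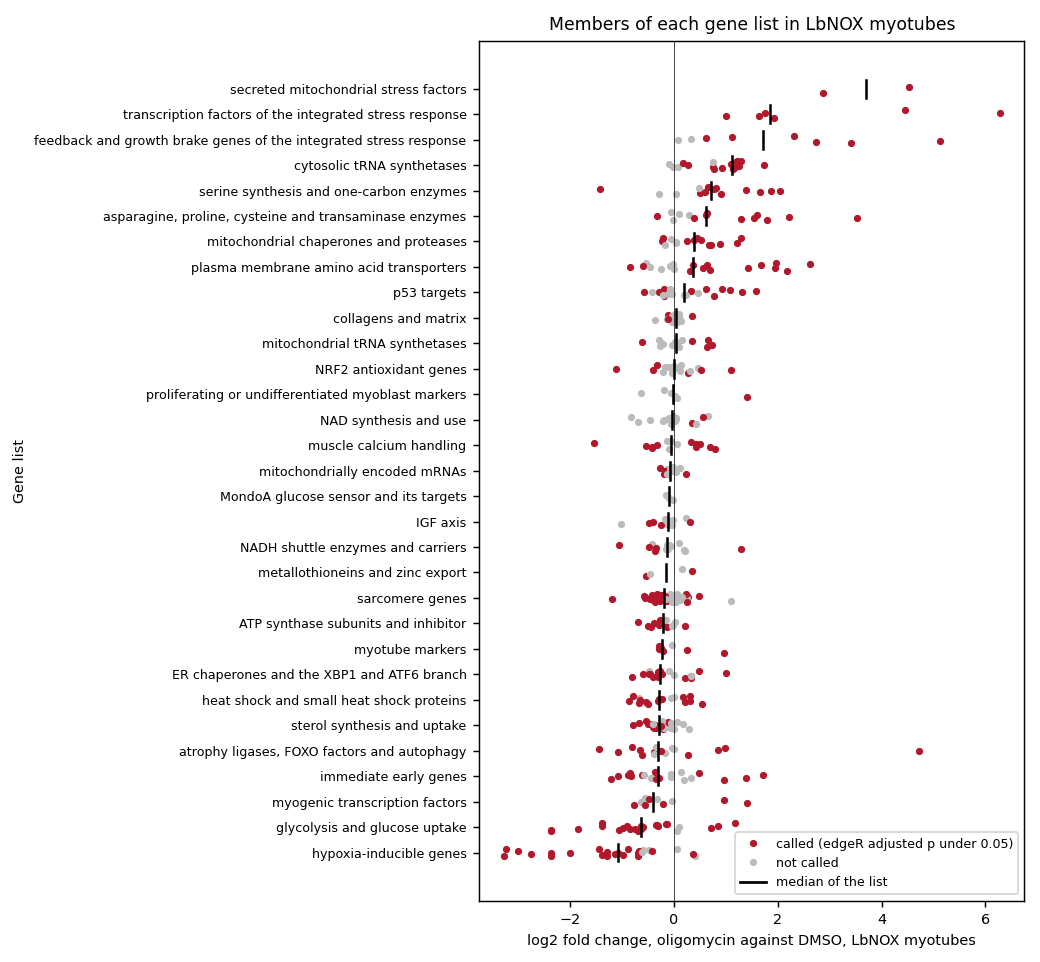
Log2 fold change of oligomycin against DMSO in LbNOX myotubes for each tested member of the gene lists, one point per gene, with called members (edgeR adjusted p under 0.05) in red, other members in grey and black bars at the list medians. The ISR factors, feedback genes, mitokines and cytosolic tRNA synthetases lie to the higher side, and the glycolysis, sterol, heat shock and sarcomere lists have their medians below 0.

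Glycolysis genes fell. Of 24 tested, 19 fell, 3 rose and 2 were not called, with a median log2 fold change of -0.63, and their summed level went from 13786 to 15805 CPM with DMSO to 9755 to 10780 CPM with oligomycin. Slc16a3, the lactate exporter MCT4, went from 56.5, 58.2 and 52.8 CPM to 10.9, 11.2 and 10.5 CPM (log2 fold change -2.36, SE 0.11, edgeR adjusted p = 4.61e-10). Pfkl, a subunit of phosphofructokinase, went from 229, 242 and 189 CPM to 61.9, 61 and 61.7 CPM (log2 fold change -1.84), and Pgam1, phosphoglycerate mutase, from 515, 517 and 487 CPM to 193, 193 and 200 CPM (log2 fold change -1.37). The groups did not overlap in any of these. Ldha, which turns pyruvate into lactate and oxidises NADH in doing so, went from 1848, 1885 and 1644 CPM to 930, 861 and 800 CPM (log2 fold change -1.05, SE 0.06, edgeR adjusted p = 8.6e-09). Pfkfb3, which makes the allosteric activator of phosphofructokinase, fell by 2.36 on the log2 scale, and Pdk1, which switches pyruvate dehydrogenase off, fell by 1.38. The 3 that rose were Hk2, the muscle hexokinase, from 79.1, 75.4 and 69.7 CPM to 163, 170 and 176 CPM (log2 fold change 1.18), the insulin-responsive glucose transporter Slc2a4 (0.85) and the monocarboxylate transporter Slc16a1 (0.72). The 2 not called were Pfkp (0.09) and Slc2a1 (0.05).

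The hypoxia-inducible factor HIF-1, an oxygen-regulated transcription factor, drives glycolysis genes together with other targets. A list of 26 of its known targets was drawn up after these values had been seen, so its counts are a description. Of 25 tested, 19 fell, 1 rose and 5 were not called (Vegfa, Slc2a1, Pfkfb4, Car9 and Mxi1), and the median log2 fold change was -1.08. Slc16a3, Pfkfb3, Pdk1 and Slc2a1 are on the glycolysis list too and so count in both. The secreted peptides Adm and Apln fell by 3.27 and 3.23, and the mitochondrial adenylate kinase Ak4 by 2.75 on the log2 scale. Bnip3, a receptor for the removal of mitochondria, went from 371, 403 and 342 CPM to 153, 144 and 113 CPM (log2 fold change -1.45). The member that rose was Ero1l, an oxidase of the ER, from 63.4, 69.5 and 60.9 CPM to 88, 81.7 and 81.7 CPM (log2 fold change 0.37). The starting levels differed between the kinds of myotube: the list summed to 2458 to 2893 CPM in LbNOX myotubes with DMSO and to 1955 to 2136 CPM in GFP myotubes with DMSO, and with oligomycin to 1417 to 1531 CPM and 1300 to 1310 CPM. Whether the higher DMSO level bears on the response in LbNOX myotubes was not tested.

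**Figure D3:**
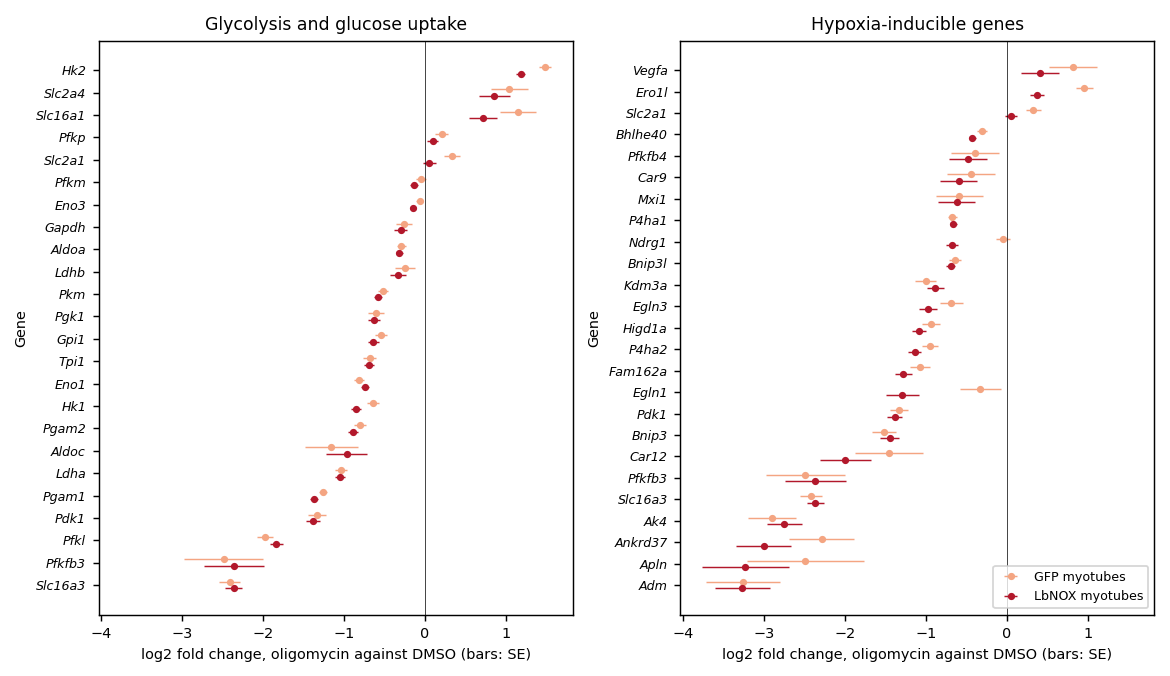
Log2 fold change of oligomycin against DMSO (x axis, bars are the SE) for each tested member of the glycolysis list (left) and of the HIF-1 list (right), in LbNOX myotubes (red) and GFP myotubes (orange). Most members lie below 0 in both, down to -2.36 for Slc16a3 and -3.27 for Adm in LbNOX myotubes, while Hk2 lies at 1.18 and Ndrg1 lies at -0.68 in LbNOX and -0.04 in GFP myotubes.

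Genes that handle NADH, NAD+ and oxidative phosphorylation had list medians between -0.20 and -0.03. Of 14 genes of the NADH shuttles, lactate dehydrogenases and their carriers, 1 rose, the aspartate aminotransferase Got1, from 70.5, 74.9 and 69.9 CPM to 177, 177 and 173 CPM (log2 fold change 1.29). Ldha, Gpd1l (-0.47), Mdh1 (-0.37) and Ldhb (-0.34) fell. Got1 also counts in the list of other amino acid synthesis, and Ldha and Ldhb in that of glycolysis. Of 16 genes of NAD+ synthesis and use, the glutamine-dependent NAD+ synthetase Nadsyn1 (0.56) and the nicotinamide riboside kinase Nmrk2 (0.35) rose and 0 fell. Of 18 genes for subunits of ATP synthase, the target of oligomycin, and for its inhibitor, 12 fell and 1 rose (median log2 fold change -0.20); the lowest were Atp5k (-0.69), 2010107E04Rik (-0.50) and Atp5j2 (-0.45), and Atp5g1, a gene of the proton-carrying c ring, was the one that rose (0.23). Of 13 protein-coding genes of the mitochondrial genome, mt-Co1 rose (0.24) and mt-Nd6 (-0.26), mt-Nd1 (-0.18) and mt-Co3 (-0.18) fell. In each list of this paragraph the share that rose lay below the 16.6% higher among all features. In the NAD+ list the share that fell also lay below the 15.4% lower among all features.

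Other lists of stress and growth genes are given by their counts, and those of NRF2 targets and of collagens lay near or below the shares called among all features. The share that rose in the insulin-like growth factor list also lay below that of all features. Of 24 genes of sterol synthesis and uptake 14 fell and 0 rose (median log2 fold change -0.28), among them the sterol sensor partner Insig1 at -0.66 and the mevalonate pathway kinase Pmvk at -0.53. Of 17 targets of the oxidant-responsive factor NRF2, 3 rose (the haem oxygenase Hmox1 at 1.09, Osgin1 at 0.52 and Nfe2l2, which encodes NRF2, at 0.28) and 3 fell (Gsr at -1.11, Pgd at -0.39 and Prdx1 at -0.32), with a median of 0.00. Of 19 p53 targets 7 rose, led by the kinase Plk2, from 120, 126 and 124 CPM to 379, 360 and 374 CPM (log2 fold change 1.59), and the ribonucleotide reductase subunit Rrm2b (1.31). The 4 that fell were Fas (-0.57), Sesn1 (-0.29), Cdkn1a (-0.19) and Ccng1 (-0.19). Of 20 immediate early genes 4 rose and 9 fell (median -0.31): Myc went from 26.1, 24.9 and 26.3 CPM to 86.6, 85 and 81.7 CPM (log2 fold change 1.71), Klf4 (1.39), Fos (0.96) and Klf6 (0.49) also rose, and Egr3 (-1.21), Klf10 (-1.07), Fosl1 (-0.89) and Egr1 (-0.85) were among those that fell. Of the metallothioneins Mt2 rose (0.36) and Mt1 fell (-0.53), and 0 of 3 targets and partners of the glucose sensor MondoA were called. In the insulin-like growth factor list of 12, Igfbp5 rose (0.31) and Igf1r (-0.47), Irs1 (-0.41) and Igfbp6 (-0.24) fell. Of 15 collagen and matrix genes Fn1 rose (0.36) and Col5a2 (-0.12) and Sparc (-0.10) fell.

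The myogenic regulators, the bHLH factors that set muscle identity, moved apart from each other. Myog, the factor of terminal differentiation, went from 562, 546 and 516 CPM to 1092, 1053 and 1043 CPM (log2 fold change 0.97, SE 0.04, edgeR adjusted p = 5.49e-10). Myf5, the factor of early myoblasts, went from 13.3, 11.1 and 12.1 CPM to 32.7, 32.5 and 31.6 CPM (log2 fold change 1.41, SE 0.10, edgeR adjusted p = 1.08e-07). Myod1 went the other way, from 150, 152 and 159 CPM to 90.6, 90.2 and 91 CPM (log2 fold change -0.76, SE 0.06, edgeR adjusted p = 1.48e-07). None of these groups overlapped. Of the 10 myogenic factors tested, 2 rose, 4 fell and 4 were not called, with Mef2d (-0.48) and Mef2c (-0.21) among those that fell.

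Of 40 sarcomere genes 22 fell and 4 rose, most by little (median log2 fold change -0.19). Tcap, which caps titin at the Z-disc, went from 62.6, 66 and 52.1 CPM to 30.2, 25.8 and 23.8 CPM (log2 fold change -1.18), and Myh2 (-0.57), Ldb3 (-0.56) and Mybph (-0.55) followed. Those that rose were Myom2 (0.49), the slow myosin Myh7 (0.27), skeletal actin Acta1 (0.25, from 5925, 6087 and 5808 CPM to 7266, 7077 and 6817 CPM) and titin, Ttn (0.24). The embryonic myosin Myh3 had a log2 fold change of -0.02 (edgeR adjusted p = 0.676). Of 15 genes of calcium handling and excitation 6 rose and 5 fell, the furthest being Jph1 (0.80) and Cacnb1 (0.70) on one side and the calcium buffer Pvalb (-1.53) and Trdn (-0.53) on the other. Of 16 genes of atrophy and autophagy 4 rose and 7 fell: the autophagy receptor Sqstm1 went from 822, 869 and 817 CPM to 1684, 1588 and 1695 CPM (log2 fold change 0.99) and the protease Ctsl rose by 0.84, while the autophagy kinase Ulk1 (-1.07) and the ubiquitin ligase of wasting Fbxo32 (-0.62) fell and the ligase Trim63 stayed uncalled at -0.00. The furthest of those that fell was Bnip3 (-1.45), which counts in the HIF-1 list too. Klf15, a glucocorticoid-responsive factor, was called higher with 2 counts over the 3 DMSO libraries and 69 over the 3 oligomycin libraries, a CPM ratio (such ratios use unscaled library totals) of 29.8 with an exact 95% interval of 7.95 to 251.1 that covers counting error only.

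**Figure D4:**
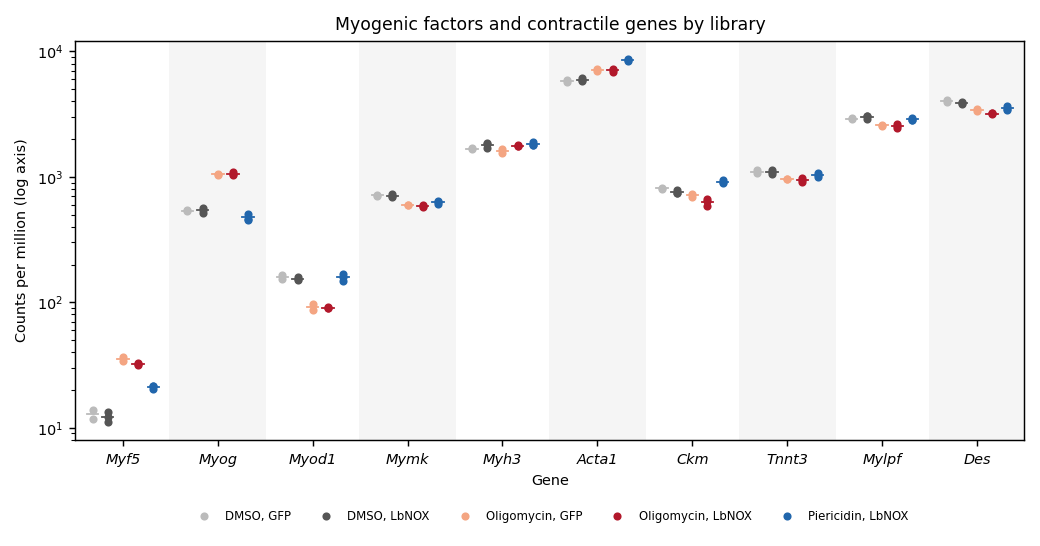
Levels in CPM on a log axis, one point per library, of myogenic factors and muscle genes in DMSO, oligomycin and piericidin LbNOX myotubes and in DMSO and oligomycin GFP myotubes, with short bars for group means. Myog (1043 to 1092 CPM with oligomycin against 516 to 562 CPM with DMSO) and Myod1 (90.2 to 91 against 150 to 159 CPM) lie on opposite sides of their DMSO levels in LbNOX myotubes, and on the same sides in GFP myotubes.

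Outside the lists, the largest rises among genes with a mean of at least 50 counts were mostly in transcripts scarce in DMSO, so that the counts came chiefly from the oligomycin libraries. Car6, a secreted carbonic anhydrase, stood at 0.712, 0.198 and 0 CPM with DMSO and at 29.1, 27.4 and 28.2 CPM with oligomycin (edgeR adjusted p = 4.61e-08). With 9 counts over the DMSO and 929 over the oligomycin libraries, its CPM ratio was 89.2 with an exact 95% interval of 46.8 to 195.7 that covers counting error only. Cdsn, an adhesion protein of cornified skin, went from 4.27, 3.95 and 1.27 CPM to 83.3, 77.9 and 79.4 CPM (log2 fold change 4.63). Ptgs2, the inducible cyclooxygenase COX-2, started higher, at 9.36, 8.2 and 9.34 CPM, and reached 124, 134 and 131 CPM (log2 fold change 3.86, SE 0.15, edgeR adjusted p = 1.17e-10). The integrin subunit Itgb2 rose from 9 to 369 counts over the libraries, a CPM ratio of 35.4 (18.5 to 78.1, counting error only). The glycosyltransferase B3gnt5 rose by 4.28, the actin-binding Avil by 4.15, the orphan nuclear receptor Esrrg by 3.93 and the aldo-keto reductase Akr1b7 by 3.92 on the log2 scale.

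On the lower side, the largest fall among such genes outside the lists was that of Scml4. Scml4, a Polycomb-family gene, went from 49.4, 51.1 and 58.7 CPM to 1.96, 4.25 and 2.53 CPM (log2 fold change -4.22, SE 0.17, edgeR adjusted p = 2.07e-10). Art1, a surface ADP-ribosyltransferase of skeletal muscle, went from 101, 122 and 112 CPM to 16, 13.6 and 13.4 CPM (log2 fold change -2.96). Fst, follistatin, which binds myostatin and activin and favours muscle growth, went from 61.7, 94.4 and 97.2 CPM to 10.6, 13.4 and 10.6 CPM (log2 fold change -2.88), with a wide spread among the DMSO libraries. Absence of overlap between the groups was a condition for naming these genes. Asb2, a substrate receptor of a ubiquitin ligase in muscle, fell by 3.62, the receptor Gpr35 by 3.61, Smim5 by 3.55, the channel subunit Lrrc26 by 3.17 and the gap junction gene Gja5 by 2.69 on the log2 scale.

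The test of the difference between the oligomycin responses of LbNOX and GFP myotubes called 0 of 12397 features (edgeR, smallest adjusted p 0.824), with 525 at an unadjusted p under 0.05, and DESeq2 called 1, Ndrg1, while edgeR without the filter on low counts called 197. The median half-width of the 95% interval of that difference was 0.46 on the log2 scale, and for 8702 features the interval lay within 1 of 0 on either side. Features called in both kinds of myotube in the same direction numbered 2643, which is 66.7% of the LbNOX calls and 82.2% of the GFP calls. Of the LbNOX calls 98.0% had the same sign in GFP myotubes, and 1 feature, the predicted gene Gm3272, noticed after its values were seen, was called in opposite directions. The log2 fold changes of the 12397 features had a Pearson r of 0.781 between the kinds of myotube, a description across genes, which are not independent replicates; the 2 responses have no library in common.

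**Figure D5:**
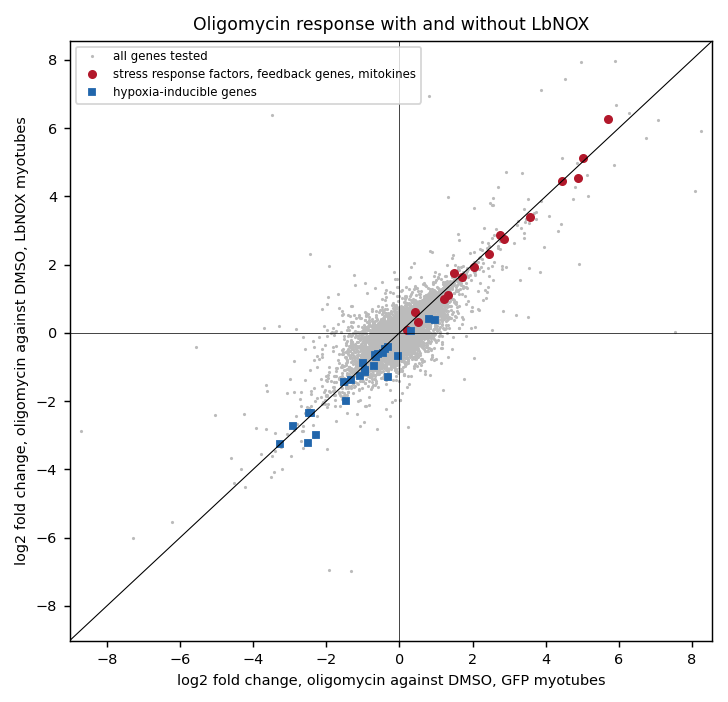
Log2 fold change of oligomycin against DMSO in LbNOX myotubes (y axis) against that in GFP myotubes (x axis), one grey point per tested gene, with ISR factors, feedback genes and mitokines as red circles, HIF-1 list genes as blue squares and a line where both are equal. The red points lie along the line up to Atf3 (6.27 and 5.69) and the blue ones down to Adm (-3.27 and -3.26), with Ndrg1 (-0.68 and -0.04), Egln1 (-1.29 and -0.33) and Ero1l (0.37 and 0.96) among the blue points off the line.

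For several ISR genes the values of the 2 responses are given beside each other. Ddit3 rose by 4.44 in GFP myotubes against 4.45, and the difference was 0.01 (95% interval -0.21 to 0.23). Atf4 rose by 2.04 in GFP myotubes, with a difference of -0.11 (-0.25 to 0.03), Fgf21 by 2.75 with 0.13 (-0.06 to 0.31), and Gdf15 by 4.88 with -0.35 (-0.75 to 0.05). Atf3 rose by 5.69 in GFP myotubes and differed by 0.58 (0.17 to 0.99, edgeR unadjusted p = 0.00916, adjusted p = 0.973); it started at 5.42 and 4.93 CPM with DMSO there, above the 3.11 to 3.87 CPM of LbNOX myotubes. Asns, at 2.03 in GFP myotubes, differed by -0.24 (-0.43 to -0.04, edgeR unadjusted p = 0.0194). Over the 20 cytosolic tRNA synthetases the median difference was -0.07, and single differences ran from -0.83 to 0.16. They ran from -0.43 to 0.80 among serine and one-carbon genes and from -1.25 to 0.74 among amino acid transporters, with none called. The intervals of Atf3 and Asns did not include equality of the 2 responses, yet neither difference was called. Differences of that size, and smaller ones, could thus go uncalled with these libraries.

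The lowest unadjusted p of the difference among all list members was that of Ndrg1, a stress gene induced by hypoxia and by iron loss. Ndrg1 went from 296, 340 and 279 CPM to 197, 185 and 190 CPM in LbNOX myotubes (log2 fold change -0.68) and stood at 195 and 205 CPM with DMSO and at 191 and 197 CPM with oligomycin in GFP myotubes (log2 fold change -0.04, edgeR adjusted p = 0.773). The oligomycin levels lay close together and the DMSO levels apart, and the difference was -0.64 (-0.88 to -0.39, edgeR unadjusted p = 6.64e-05, adjusted p = 0.824). Ero1l, at 42.7 and 49.7 CPM with DMSO and 93.4 and 86.2 CPM with oligomycin in GFP myotubes, differed by -0.58 (-0.88 to -0.29, edgeR adjusted p = 0.973), again with the higher DMSO level in LbNOX myotubes. Hk2, at 1.48 in GFP myotubes, differed by -0.30 (-0.50 to -0.10) and the prolyl hydroxylase Egln1, at -0.33, by -0.96 (-1.65 to -0.27), both with an edgeR adjusted p of 0.973. Avil had 1 count over both GFP DMSO libraries and 364 over both GFP oligomycin libraries, a CPM ratio of 322 with an exact 95% interval of 57.4 to 12754 that covers counting error only. Its log2 fold change was 8.09 in GFP and 4.15 in LbNOX myotubes, and the difference was not called.

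Under oligomycin itself, LbNOX and GFP myotubes differed in 2 of 12397 features (0.0161%), and both were the transgenes: LbNOX, and eGFP at a log2 difference of -1.65. At an unadjusted p under 0.05 there were 807. DESeq2 called 28, edgeR without the filter on low counts 130 and edgeR with the replicate number as a block 7.

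Oligomycin and piericidin were compared within LbNOX myotubes, using the same oligomycin libraries as above. Of 12397 features 14.4% were higher with oligomycin (1781) and 12.9% lower (1603). All 6 ISR transcription factors were higher with oligomycin. With piericidin Atf3 stood at 10.7, 7.73 and 10.8 CPM and Ddit3 at 33.2, 37.1 and 34.1 CPM, and the log2 differences were 4.76 and 3.62. Gdf15 stood at 8.84, 8.95 and 9.19 CPM with piericidin, Fgf21 at 55.8, 55.1 and 56.5 CPM and Chac1 at 45.1, 35.4 and 37.8 CPM, with log2 differences of 2.83, 1.97 and 1.74. For Atf3, Ddit3, Gdf15, Fgf21 and Chac1 every piericidin library stood above the DMSO values given earlier for LbNOX myotubes. Piericidin against DMSO was not tested. Among the other ISR groups, 7 of 8 feedback genes, 9 of 14 serine and one-carbon genes, 7 of 14 genes of other amino acid synthesis, 10 of 19 amino acid transporters and 18 of 20 cytosolic tRNA synthetases were higher with oligomycin. Of these groups the transporters Slc6a6 (-0.70) and Slc36a1 (-1.06) and Trib1 were lower, with Trib1 (-0.52) at 16.7, 16.5 and 16 CPM with piericidin. Ddit4, not called against DMSO, was 1.63 higher than with piericidin, where it stood at 1.91, 2.64 and 3.5 CPM.

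Glycolysis and HIF-1 list genes had medians nearer to 0 in this comparison. The HIF-1 list had a median log2 difference of -0.08, with 6 of 25 higher and 6 lower, and the glycolysis list one of -0.16, with 12 of 24 lower and 4 higher with oligomycin. With piericidin Pgam1 stood at 207, 223 and 204 CPM, a log2 difference of -0.11 (edgeR adjusted p = 0.0724), Pfkl at 73.3, 71.7 and 62.3 CPM, and Ak4 at 3.92, 4.17 and 4.4 CPM against 3.65, 3.8 and 4.67 CPM with oligomycin. Pgam1 and Pfkl thus stood below their DMSO values, given earlier, with either inhibitor. Ndrg1 was lower with piericidin, at 96.2, 97.7 and 97.5 CPM (log2 difference 0.97), as was Ero1l at 28.1, 30.4 and 35.1 CPM (1.42). Muscle regulators also differed between the inhibitors: Myog stood at 465, 509 and 450 CPM and Myod1 at 158, 148 and 168 CPM with piericidin, with log2 differences of 1.16 and -0.80. Asb2 stood higher with piericidin than in the DMSO and oligomycin libraries, at 37.1, 34.2 and 44.1 CPM (log2 difference -4.69), while Ptgs2 stood at 8.04, 7.42 and 5.9 CPM (4.19) and Car6 at 0.1, 0.203 and 0.6 CPM.

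Against myotubes without virus, 17 of 12478 features (0.136%) differed in their oligomycin response from LbNOX myotubes, 7 with a higher and 10 with a lower log2 change in LbNOX myotubes. Virus, handling and LbNOX cannot be told apart in this comparison. The largest was Gdf5, a growth factor of the BMP family, at -1.41, and Ndrg1 (-0.67), Hk2 (-0.55), Art1 (-0.61) and Myod1 (-0.53) of the genes above were among the 10. Ndrg1 had a mean of 200 CPM with DMSO and 198 CPM with oligomycin in myotubes without virus, and Hk2 had means of 53.6 and 178 CPM. At an unadjusted p under 0.05 there were 1059 features. DESeq2 called 44, edgeR without the filter on low counts called 377 and without untransduced oligomycin replicate 3 called 5, and 11 of the 12 genes named by the rule for this comparison lost their call under at least 1 alternative.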

How the data were processed

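Polyadenylated RNA was sequenced from full-length cDNA libraries. The authors ran kallisto on a mouse transcript set to which the transgenes had been added, and summed the estimates by gene and over flow cells; the deposited estimated counts are whole numbers. The submitters' processing notes name kallisto 0.44 and bcl2fastq 2.20.0.422. The libraries did not keep strand, so reads of overlapping antisense genes cannot be told apart.

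Of 54150 rows, a feature was tested if 1 or more groups had no replicate under 16 counts. Counts were scaled by the trimmed mean of M values and fitted with edgeR's quasi-likelihood test (edgeR 4.0.16, limma 3.58.1, R 4.3.3), with 1 mean per group over the 15 transduced myotube libraries, and for the comparison with untransduced myotubes over 21. Calls were made at a Benjamini-Hochberg adjusted p under 0.05 over all features tested, in each of 6 comparisons. The SE is the absolute log2 fold change over the square root of F, and intervals are 95%. The tests were run on simulated data with known changes: most 4-fold changes were recovered, while part of the 2-fold changes were missed, more of them in GFP myotubes and for the difference of responses than in LbNOX myotubes. Of 100 simulated 2-fold changes each, 73 were recovered in LbNOX myotubes, 54 in GFP myotubes and 56 for the difference of responses. Replicates were compared, and 0 of 18 pairs were identical. Alternatives used DESeq2 1.42.0, its size factors, no filter, fewer groups, a replicate block, and each replicate left out.

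The libraries and gene lists were chosen with earlier results of these data known, and the HIF-1 list after its values were seen. Named genes were all tested ISR factors, feedback genes and mitokines, the furthest called members of the other lists, and those with the largest called changes with a mean of at least 50 counts and no overlap between groups, leaving out predicted genes. Some genes that this rule names are not reported here. Coordinates are those of GRCm38 and promoter windows those of RefSeq (GRCm38.p6). Figures were drawn with matplotlib 3.10.9.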

Additional observations from a re-analysis of the deposited data

Results flagged for a closer look

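For 17 genes the oligomycin response differed between LbNOX myotubes and myotubes without virus by the test of the difference itself (edgeR adjusted p under 0.05). None of the 17 was a transgene. The 12 named by the rule had these differences of the log2 response, LbNOX minus untransduced. Those with a higher change in LbNOX myotubes were Esf1, a ribosome-processing factor, at 0.73, Abra, an actin-linked activator of serum response factor, at 0.72, Pip5k1a at 0.56, the nuclear envelope gene Syne1 at 0.45, the cytokine receptor Tnfrsf12a at 0.36 and the muscle caveolar gene Cavin4 at 0.24. Those with a lower change were the growth factor Gdf5 at -1.41, Card14 at -0.96, the deglycating kinase Fn3k at -0.93, Ndrg1 at -0.67, Art1 at -0.61 and Hk2 at -0.55. Of these 12, 11 lost their call under at least 1 alternative, and the total was 5 without untransduced oligomycin replicate 3 and 377 without the filter on low counts. The other 5, outside the rule, were Myod1 (-0.53), Stk11ip (-0.44), Coq8a (-0.42), Gm4735 (-0.67) and 2810474O19Rik (0.84, the smallest adjusted p, 2.01e-06). Virus, handling and LbNOX cannot be told apart in this comparison.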

How the results depend on the processing

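The counts of genes called for oligomycin against DMSO in LbNOX and in GFP myotubes and against piericidin in LbNOX myotubes stayed within 1.5 times the reported counts under every alternative run. For oligomycin against DMSO in LbNOX myotubes they were 3451 with DESeq2, 3926 with its size factors, 3792 without the count filter, 4066 with only the groups compared and 3235 to 3421 with a replicate left out. Of 173 called genes named for that comparison 147 kept their call under every alternative, and the 26 that lost it at least once, such as Clpx, Gldc, Gsr, Ttn and Mef2c, kept their direction. Ddit4 and Trib1 were not called under any. The 12 genes with the largest changes in GFP myotubes and the 12 against piericidin kept their direction and their call. With a replicate left out, 2776 to 2855 genes were called against piericidin and 2237 to 2513 in GFP myotubes.

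The difference of the responses between LbNOX and GFP myotubes, with 0 calls, gave 197 without the count filter and 1 with DESeq2 (Ndrg1), and 0 whichever replicate was left out; of the 197, 24 lay on features outside the reported test, and the cause of the others was not tested. LbNOX against GFP under oligomycin, with 2 calls, gave 130 without the filter, 28 with DESeq2 and 7 with the replicate block (eGFP, LbNOX, Mybph, Myh7, Eno1, Bnip3 and Gm26809), and 2 to 3 with a replicate left out, the third being Gvin1 without LbNOX oligomycin replicate 1. The difference from untransduced myotubes, with 17 calls, gave 377 without the filter, 44 with DESeq2, 10 with the replicate block, 6 with only the groups compared and 5 to 15 with a replicate left out, 5 of them without untransduced oligomycin replicate 3 and 15 without LbNOX DMSO replicate 3; 11 of its 12 named genes lost their call under some alternative, and none changed direction. The cause was not tested. Of 704 recounts of list members, 60 moved by more than 1.5 times, and 0 results reversed.

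The replicate numbers were not taken to pair the samples: over all groups, deviations of libraries with the same number had a mean correlation of -0.047 against 0.026 for different numbers. Between LbNOX and GFP libraries of the same treatment and number, the correlations were 0.226 and 0.148 with DMSO, 0.288 and 0.290 with piericidin, and -0.022 and -0.017 with oligomycin. With the number as a block the calls were 3753 for oligomycin against DMSO in LbNOX myotubes, 3071 for oligomycin against DMSO in GFP myotubes, 0 for their difference and 3229 for oligomycin against piericidin in LbNOX myotubes. Depth limits scarce genes, and 2 GFP libraries a group limit the test of the difference.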
